A study of Mus musculus with 12 samples.

Results

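The genes of 10 secreted inflammatory cytokines (Tnf, Il6, Il10, Il1a, Il1b, Il1rn, Csf2, Csf3, Il27 and Lif) were followed across 12 RNAseq libraries of RAW264.7 cells, an established mouse macrophage line of BALB/c origin. They were chosen by name, with earlier results of these data known, and each symbol matched 1 of the 38215 rows of the gene count table. All cells were transfected by nucleofection, either with a nontargeting control siRNA or with siRNA against Sf3a1, and 24 hours later they received 20 ng/ml LPS for 4 hours or no LPS. Each of the 4 combinations of siRNA and LPS had 3 libraries, which the submitters describe as biological replicates. With control siRNA, the total counted on genes ran from 20659511 to 40840082 per library before LPS and from 13021502 to 41091887 after it. With SF3a1 siRNA the totals ran from 12746019 to 27789833 before LPS and from 17174058 to 36506558 after it. The model has limits that belong to its design. It is a single transformed line, the siRNA lowers Sf3a1 mRNA without removing it, and RNA was measured, not the secreted proteins.

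Macrophages sense LPS, a component of the outer membrane of Gram-negative bacteria, through TLR4, which activates NF-κB, AP-1 and interferon regulatory factors and starts transcription of cytokine genes within hours. The secreted products act on receptors of neighbouring cells and of the macrophage itself. Some promote inflammation (TNF, IL-1α, IL-1β, IL-6), others restrain it (IL-10, the IL-1 receptor antagonist), and the colony-stimulating factors act on the production and survival of myeloid cells. SF3a1 is a subunit of the SF3a complex of the U2 snRNP, which takes part in recognition of the branch point during pre-mRNA splicing.

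Sf3a1 itself was measured first. With LPS it stood at 150, 194 and 157 CPM in replicates 1, 2 and 3 with control siRNA and at 30.3, 26.7 and 45.1 CPM with SF3a1 siRNA, where CPM is a gene's count scaled to a common library total after TMM normalization. Without LPS the values were 173, 216 and 185 CPM against 27.1, 27.5 and 32.1 CPM. The groups did not overlap in either condition, and the libraries matched their siRNA labels.

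With LPS, SF3a1 siRNA lowered 7 of the 10 cytokine mRNAs, by amounts that ran from a log2 fold change of -3.73 for Il6 to -1.25 for Csf2. Il6 kept 7.56% of its control level and Il27 kept 11.99%. The 3 IL-1 family genes Il1rn, Il1b and Il1a kept 28.4, 31.6 and 30.3%, and Csf3 and Csf2 kept 40.3 and 42.3%. Tnf, Il10 and Lif did not pass the test, at 62.4, 70.4 and 106% of the control level. The threshold for a call was 0.1 on the p of edgeR's quasi-likelihood model, adjusted by Benjamini-Hochberg over the genes tested. Of all 14983 genes tested, 20.4% were called lower in this comparison, 18.4% higher and 38.8% in either direction. The median log2 fold change was -1.49 over the 10 cytokine genes and -0.04 over all genes tested. All 10 had passed the filter on low counts, which they could do through the libraries with LPS alone. The 10 genes were chosen with earlier results of these data known, so their counts beside these shares only describe the set.

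**Figure D1:**
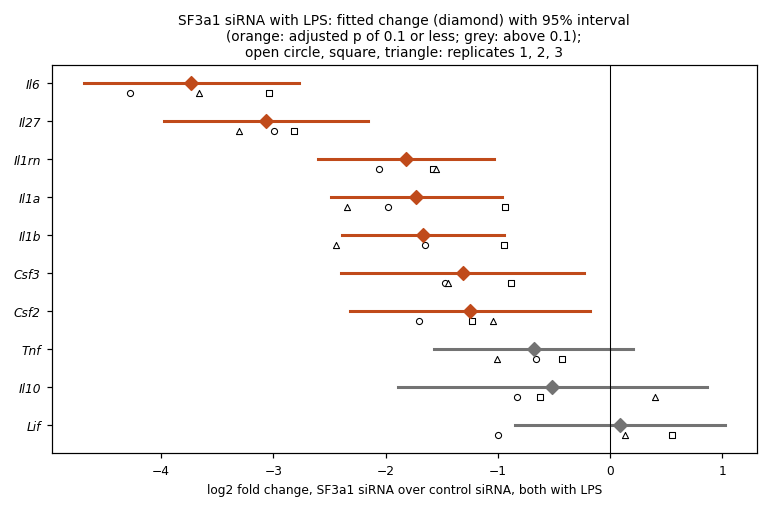
Log2 fold change of the 10 cytokine genes with SF3a1 siRNA against control siRNA, both with LPS (x axis), 1 gene per row. Diamonds and lines are the edgeR estimate and its 95% interval over 3 libraries per group, orange where the adjusted p is 0.1 or less and grey otherwise; open symbols are the ratios within replicate numbers 1, 2 and 3. Il6 and Il27 lie farthest to the left, and the intervals of Tnf, Il10 and Lif include 0.

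In bulk RNA, fewer cells that make a cytokine and less RNA in each of them cannot be told apart. The first replicates were each sequenced in 2 runs and all others in 1, so the comparison was also made with replicates 2 and 3 alone. There the same 7 genes were called lower and Tnf was called too, with a log2 fold change of -0.68 (edgeR adjusted p = 0.0187). That fit called 22.9% of all genes lower and 44.8% in either direction. The share of reads outside annotated genes was 17.75 to 19.83% in the libraries with control siRNA and LPS and 18.2 to 21.37% with SF3a1 siRNA and LPS, and its part in the result was not tested.

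NF-κB and AP-1, which LPS activates, act through short sequences near the start of cytokine genes, and the bases before the start were searched for their letters. RefSeq (GRCm38.p6) gave a promoter for 7 of the 10 genes (Tnf, Il6, Il1a, Il1b, Il1rn, Csf2 and Lif), and the 250 bases before the start were used. The set of RefSeq promoters used here held no entry for Il10, Csf3 and Il27, which is a limit of that set. On both strands, GGGA and TTTCC with any 1 base between them (a form of the NF-κB site) was present in 0.356% of 32851 promoters, TGANTCA (AP-1) in 6.75% and TATAAA (the TATA box) in 12.4%; the 3 motifs did not overlap in the promoters shown. Those of the gene that fell most (Il6), of the most abundant gene (Il1b) and of 2 genes not called with LPS (Tnf and Lif) are shown, with the matches in capitals. Their windows are chr5:30012864-30013113 (forward), chr2:129371140-129371389 (reverse), chr17:35202008-35202257 (reverse) and chr11:4257318-4257567 (forward).
Il6 promoter: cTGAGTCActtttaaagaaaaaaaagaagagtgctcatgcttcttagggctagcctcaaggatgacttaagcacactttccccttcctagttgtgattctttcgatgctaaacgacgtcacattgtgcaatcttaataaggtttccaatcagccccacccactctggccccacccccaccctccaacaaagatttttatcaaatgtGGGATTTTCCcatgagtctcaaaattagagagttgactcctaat
Il1b promoter: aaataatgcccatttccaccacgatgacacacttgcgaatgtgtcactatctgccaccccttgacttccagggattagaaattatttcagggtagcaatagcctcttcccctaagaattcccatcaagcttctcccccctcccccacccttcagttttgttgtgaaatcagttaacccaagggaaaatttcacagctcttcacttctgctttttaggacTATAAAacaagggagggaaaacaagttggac
Tnf promoter: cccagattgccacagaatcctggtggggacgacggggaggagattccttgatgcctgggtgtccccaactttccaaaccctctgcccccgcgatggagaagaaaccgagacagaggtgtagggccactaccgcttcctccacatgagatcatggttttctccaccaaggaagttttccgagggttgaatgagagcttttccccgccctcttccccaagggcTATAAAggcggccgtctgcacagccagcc
Lif promoter: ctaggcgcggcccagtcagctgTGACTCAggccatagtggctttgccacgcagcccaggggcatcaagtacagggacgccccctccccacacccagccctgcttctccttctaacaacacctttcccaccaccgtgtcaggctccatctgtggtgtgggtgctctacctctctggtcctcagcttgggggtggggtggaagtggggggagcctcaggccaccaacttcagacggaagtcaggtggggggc
Il6 had GGGATTTTCC from position -44 and TGAGTCA from -249, counted so that -1 is the last base before the start. Tnf and Il1b had TATAAA from -29 and -31, and Lif had TGACTCA from -228. Among those not shown, Il1a had TATAAA from -32 and TGACTCA from -12, and Il1rn had TGAGTCA from -141 of the first of its 3 starts. The Csf2 window, chr11:54249900-54250149 (reverse), had no match. It lies before a RefSeq start upstream of the GENCODE gene, which begins at 54249667, and the bases between were not searched. A match of letters is a description of the window and says nothing of binding here.

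Many cytokine mRNAs carry AU-rich elements in the 3′ UTR, which bind proteins that set their half-life. In the longest coding transcripts of GENCODE vM21 (mm10), the pentamer ATTTA occurred 28.4 times per kilobase in Csf2, 17.5 in Il27 and 10.5 in Tnf, then 8.97 in Csf3, 8.71 in Il1b and 8.5 in Il10. It occurred 6 times per kilobase in Il6, 2.72 in Il1a and 2.2 in Lif, and not at all in the 1864 bases of Il1rn. The median over 19804 genes was 1.35. The longer TTATTTAT was present in 8 of the 10 genes, all but Il6 and Il1rn, against 14.1% of all 3′ UTRs, whose lengths differ. The 30 bases densest in ATTTA (capitals) are shown for 2 genes that fell with SF3a1 siRNA and LPS, Csf2 and Il27, and 2 not called, Tnf and Lif. Csf2 and Il27 have the highest densities of the 10 genes.
Csf2 3′ UTR: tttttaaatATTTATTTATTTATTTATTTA
Il27 3′ UTR: ccagatATTTAtttcttggatATTTATTTA
Tnf 3′ UTR: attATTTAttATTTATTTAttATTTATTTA
Lif 3′ UTR: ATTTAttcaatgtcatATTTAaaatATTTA
The windows of Csf2 and Tnf held 5 copies of ATTTA and those of Il27 and Lif 3. Il6 and Il1rn, both lower with SF3a1 siRNA and LPS, differed from each other in copies per kilobase. The part of these elements in the changes with SF3a1 siRNA was not tested.

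The agonists of the IL-1 receptor are IL-1α, which acts from dying or activated cells, and IL-1β, which is cleaved by caspase-1 before release. Both genes lie on the reverse strand of chromosome 2 of mm10, Il1a (ENSMUSG00000027399) at chr2:129299610-129309972 and Il1b (ENSMUSG00000027398) at chr2:129364570-129371139, and their longest coding transcripts in GENCODE vM21 have 7 exons each. Il1a had 1 count over the 3 control libraries without LPS. With LPS it reached 634, 804 and 1405 CPM in replicates 1, 2 and 3 with control siRNA, and 161, 422 and 277 CPM with SF3a1 siRNA. The highest library with SF3a1 siRNA was below the lowest with control siRNA. Il1a had a log2 fold change of -1.73 (standard error 0.352, edgeR adjusted p = 0.00275). Il1b was measured at 2389, 2659 and 4202 CPM with control siRNA and LPS. It fell to 762, 1380 and 776 CPM with SF3a1 siRNA and LPS, again without overlap. The log2 fold change of Il1b was -1.66 (standard error 0.332, edgeR adjusted p = 0.00237).

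Before LPS, Il1b was close to silent in both groups, with 7, 2 and 6 counts in the libraries with control siRNA and 25, 3 and 5 with SF3a1 siRNA. Its level in replicate 1 with SF3a1 siRNA, 0.912 CPM, lay above the other 5 libraries, whose values ran from 0.0894 to 0.372 CPM. The comparison was called higher, with a log2 fold change of 1.64 (standard error 0.673, edgeR adjusted p = 0.0913), but with replicates 2 and 3 alone the log2 fold change was 0.54 (edgeR adjusted p = 0.735). Without that 1 library it was 0.60 (edgeR adjusted p = 0.645), and the call was also lost without any of 5 others (replicates 1 and 2 of control siRNA and 3 of SF3a1 siRNA without LPS, and replicate 2 of control siRNA and 3 of SF3a1 siRNA with LPS), with adjusted p of 0.101 to 0.182. That library also had the largest share of reads outside annotated genes, 27.2%, against 20.83 and 21.56% in the other two of its group; the part of this in the Il1b value was not tested.

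Il1rn encodes the IL-1 receptor antagonist, which occupies the receptor without signalling. It lies on the forward strand at chr2:24336853-24351494 (ENSMUSG00000026981). Unlike Il1a and Il1b it was already expressed without LPS, at 53.3, 40.1 and 52.9 CPM with control siRNA. LPS brought it to 2148, 823 and 940 CPM with control siRNA and to 516, 274 and 320 CPM with SF3a1 siRNA. The groups with LPS did not overlap, although replicate 1 was more than double the others in the control group. The log2 fold change with SF3a1 siRNA and LPS was -1.82 (standard error 0.362, edgeR adjusted p = 0.00236), and without the control library of replicate 1 it was -1.25. Without LPS, SF3a1 siRNA gave 107, 59.9 and 90.6 CPM, each above all 3 control libraries, but the log2 fold change of 0.81 was not called (edgeR adjusted p = 0.115). With a replicate block it was (log2 fold change 0.77, edgeR adjusted p = 0.00488).

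**Figure D2:**
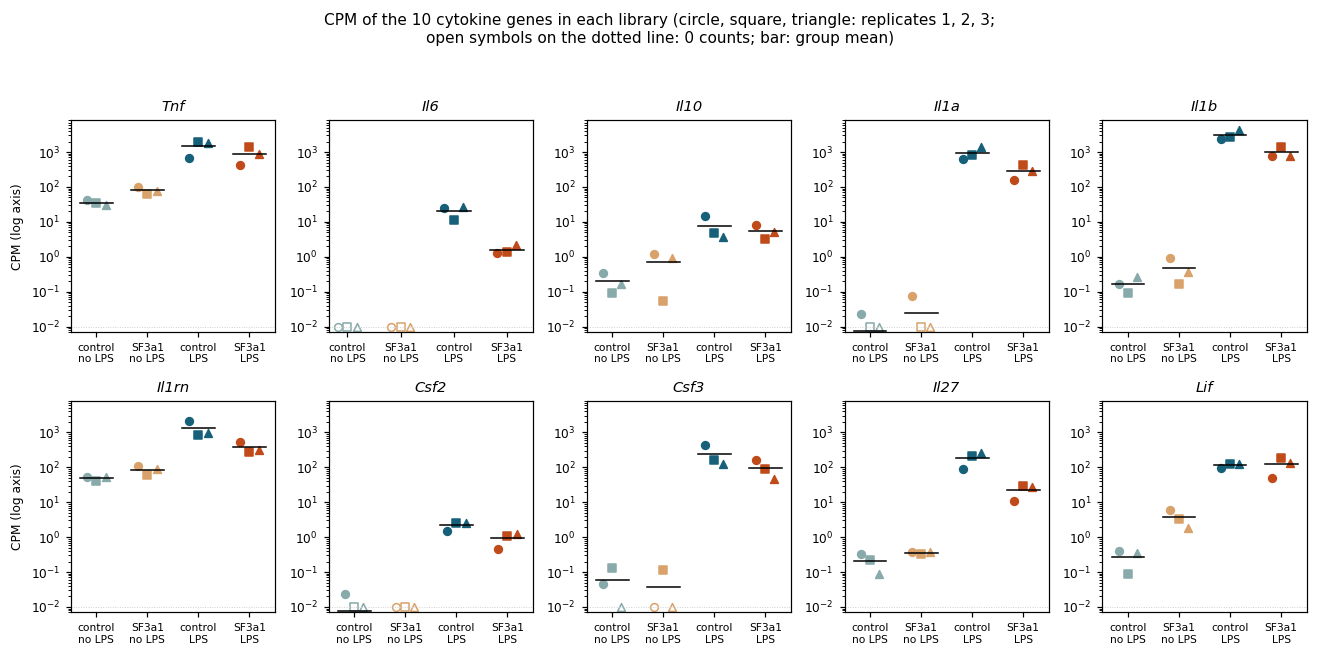
CPM of each cytokine gene in each of the 12 libraries, on a log axis; colours mark the 4 groups, circles, squares and triangles replicates 1, 2 and 3, and bars the group means. Open symbols on the dotted line are libraries with 0 counts. In each panel all 6 libraries with LPS lie above the 6 without it, and the groups with LPS are farthest apart for Il6 and Il27.

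IL-6, LIF and IL-27 signal through receptors that contain gp130 (Il6st). Il6 (ENSMUSG00000025746, chr5:30013114-30019981, forward strand) had 0 counts in all 6 libraries without LPS. With LPS and control siRNA it had 24.6, 10.97 and 27.4 CPM, from 936, 138 and 489 counts. With SF3a1 siRNA it had 1.27, 1.33 and 2.17 CPM, from 42, 22 and 45 counts. Even the lowest control library was well above the highest with SF3a1 siRNA. Among the 7 genes with a promoter entry, Il6 was the only one with the form of the NF-κB letters searched. The part of these letters in its fall was not tested. No other gene of the 10 had a fall as large as that of Il6, with a log2 fold change of -3.73 (95% interval -4.69 to -2.77, standard error 0.422, edgeR adjusted p = 0.000321).

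Il27 (ENSMUSG00000044701, chr7:126589010-126594941, reverse strand) encodes a chain of IL-27, which pairs with the product of Ebi3. With LPS it was measured at 87.3, 209 and 265 CPM with control siRNA and at 10.99, 29.6 and 26.8 CPM with SF3a1 siRNA. The groups were well apart, and the 3 ratios within replicate numbers were close to each other, with log2 values of -2.99, -2.82 and -3.31. Il27 had a log2 fold change of -3.07 (standard error 0.421, edgeR adjusted p = 0.000217). Its partner Ebi3 fell as well, from 76.0, 43.2 and 45.7 CPM to 17.5, 14.99 and 15.1 CPM, a log2 fold change of -1.79 (standard error 0.213, edgeR adjusted p = 9.47e-05). Without LPS, Il27 had a log2 fold change of 0.63 (edgeR adjusted p = 0.632), and 1.29 without replicate 1 of control siRNA without LPS (edgeR adjusted p = 0.424). Ebi3 stood there at 15.3, 12.4 and 14.6 CPM with control siRNA and at 11.6, 9.87 and 10.3 CPM with SF3a1 siRNA, without overlap. Its log2 fold change of -0.42 was not called without the replicate block and was called lower with it (edgeR adjusted p = 0.174 and 0.049). Il27 overlaps Apobr on the opposite strand, and the strand setting of the counting is not given in the sources used here. Reads of the 2 genes could therefore be mixed. The log2 fold change of Apobr with SF3a1 siRNA against control siRNA, both with LPS, was -0.80.

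IL-12 is related to IL-27 and is built from the products of Il12a and Il12b. Il12a had 0 counts in all 12 libraries. Il12b had 7, 4 and 6 counts with control siRNA and LPS and 0, 0 and 3 with SF3a1 siRNA and LPS, too few for a test.

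Lif (ENSMUSG00000034394, chr11:4257557-4272514, forward strand) encodes leukemia inhibitory factor and showed another pattern than Il6 and Il27. With LPS it stood at 97.8, 127 and 121 CPM with control siRNA and at 48.96, 186 and 133 CPM with SF3a1 siRNA, so the SF3a1 libraries lay on both sides of the controls. For Lif with LPS the log2 fold change was 0.09 with a 95% interval from -0.85 to 1.02 (edgeR adjusted p = 0.909). Without LPS the groups were apart: 0.390, 0.0894 and 0.341 CPM with control siRNA and 6.16, 3.29 and 1.79 CPM with SF3a1 siRNA. Lif thus rose before LPS, by a log2 fold change of 3.70 (standard error 0.639, edgeR adjusted p = 0.00112), the largest rise of the 10 genes in that comparison, and 3.11 without replicate 1 of SF3a1 siRNA (edgeR adjusted p = 0.00535).

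The colony-stimulating factors lie on chromosome 11. Csf3 (ENSMUSG00000038067, chr11:98701263-98703629, forward strand) encodes G-CSF, which drives neutrophil production. With LPS it had 447, 162 and 124 CPM with control siRNA and 161, 88.1 and 45.6 CPM with SF3a1 siRNA. It was lower within each replicate number, yet the groups overlapped, because replicate 1 was high in both. Its log2 fold change was -1.31 (standard error 0.499, edgeR adjusted p = 0.0638), and without the control library of replicate 1 it was -0.54 and not called (edgeR adjusted p = 0.359). The call was also lost without replicate 2 or 3 of SF3a1 siRNA with LPS, with adjusted p of 0.146 and 0.201. Csf2 (ENSMUSG00000018916, chr11:54247271-54249667, reverse strand) encodes GM-CSF and was the gene with the fewest counts after LPS in the control group. It had 56, 32 and 44 counts with control siRNA and LPS and 15, 18 and 25 with SF3a1 siRNA and LPS. In CPM these were 1.47, 2.54 and 2.47 against 0.454, 1.09 and 1.20, without overlap. Csf2 had a log2 fold change of -1.25 (standard error 0.484, edgeR adjusted p = 0.0749), and the call was lost when SF3a1 siRNA with LPS replicate 1 was left out (log2 fold change -0.89, edgeR adjusted p = 0.205). It was also lost without replicate 2 or 3 of the control group with LPS and without replicate 2 of SF3a1 siRNA with LPS, with adjusted p of 0.18, 0.175 and 0.103.

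Tnf (ENSMUSG00000024401, chr17:35199381-35202007, reverse strand) encodes TNF, a trimer shed from the cell surface by ADAM17. With LPS it reached 671, 1873 and 1804 CPM with control siRNA and 424, 1391 and 898 CPM with SF3a1 siRNA. Replicate 1 was lowest in both groups, which overlapped, and each SF3a1 library was below the control library of its number, with log2 ratios of -0.66, -0.43 and -1.01. Over the groups, Tnf had a log2 fold change of -0.68 (95% interval -1.57 to 0.21, edgeR adjusted p = 0.239). It became -1.02 and was called when the control library of replicate 1 was left out (edgeR adjusted p = 0.0465), and -1.12 without SF3a1 siRNA with LPS replicate 2 (edgeR adjusted p = 0.07). Without LPS, Tnf moved the opposite way. It was measured at 40.99, 35.5 and 29.8 CPM with control siRNA and at 98.5, 63.7 and 76.4 CPM with SF3a1 siRNA. These groups did not overlap, and the log2 fold change was 1.17 (standard error 0.416, edgeR adjusted p = 0.0561). That call was lost without replicate 2 or 3 of control siRNA or replicate 1 or 3 of SF3a1 siRNA, each without LPS, with adjusted p of 0.11, 0.133, 0.154 and 0.105.

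Il10 (ENSMUSG00000016529, chr1:131019845-131024974, forward strand) encodes IL-10, which dampens cytokine production by macrophages. With LPS it had 14.7, 4.93 and 3.76 CPM with control siRNA and 8.30, 3.20 and 4.96 CPM with SF3a1 siRNA, with replicate 1 highest in both and wide overlap. Il10 had a log2 fold change of -0.51 (95% interval -1.89 to 0.86, edgeR adjusted p = 0.597), and it turned to 0.35 without the control library of replicate 1. Without LPS it had 15, 2 and 4 counts with control siRNA and 33, 1 and 12 with SF3a1 siRNA. This log2 fold change of 1.72 was not called (edgeR adjusted p = 0.168), but it was with the replicate block, at 1.74 (edgeR adjusted p = 0.0265). These few counts make it depend on single libraries without LPS: it was 0.97 without replicate 1 of SF3a1 siRNA, 2.55 without replicate 1 of control siRNA and 2.33 without replicate 2 of SF3a1 siRNA (edgeR adjusted p = 0.561, 0.124 and 0.0459).

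LPS alone raised all 10 genes, both with control siRNA and with SF3a1 siRNA, and no library with LPS overlapped one without it. Genes close to 0 before LPS could pass the filter on low counts only through the libraries with LPS. Their rise and lack of overlap were therefore partly fixed by the filter. Of all genes tested, 13.8% were called higher and 18.3% lower with LPS and control siRNA (32.1% in either direction), and 6.60% higher and 4.06% lower with LPS and SF3a1 siRNA (10.7% in either direction). The median log2 fold change of the 10 genes was 9.12 with control siRNA and 6.69 with SF3a1 siRNA, or 8.94 and 4.97 with the genes close to 0 before LPS taken at their bound or ratio, and that of all genes was -0.02 and 0.01. Groups without overlap made up 40.2 and 24.8% of all genes tested in these comparisons. The rises covered a wide range with control siRNA, from 26.7-fold for Il1rn, 35.1-fold for Il10 and 40.9-fold for Tnf to 385-fold for Lif, 800-fold for Il27, 3986-fold for Csf3 and 17810-fold for Il1b. By mean CPM with LPS, Il6 rose at least 627-fold, taking the 3 counts that a total of 0 allows in the group before LPS as its level there. The ratio for Il1a, with 1 count before LPS, was 77480 (95% counting interval 13910 to 3061000), and that for Csf2, also with 1 count, was 173 (30.5 to 6871). These intervals cover counting error only. For both genes the count lay in replicate 1 of control siRNA without LPS. Without that library the fitted rise went from 58050-fold to 165000-fold for Il1a and from 133-fold to 372.7-fold for Csf2. A single library moved some of these rises: that of Il10 was 59.1-fold without replicate 1 of control siRNA without LPS and 19.2-fold without replicate 1 with LPS, and that of Csf3 was 7038-fold without replicate 2 of control siRNA without LPS and 2319-fold without replicate 1 with LPS.

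With SF3a1 siRNA the rises were 4.32-fold for Il1rn, 7.45-fold for Il10, 11.4-fold for Tnf, 31.5-fold for Lif, 61.7-fold for Il27 and 1797-fold for Il1b. Without replicate 1 of SF3a1 siRNA without LPS, those of Il10, Lif and Il1b were 12.5-fold, 47.4-fold and 3709-fold. Il6 and Csf2, at 0 counts without LPS in this arm, rose at least 31.2-fold and at least 17.9-fold on the same terms. These bounds rest on the mean CPM with LPS. The ratios for genes with 1 or 2 counts use counts summed over each group, which would put both bounds somewhat lower. The ratio was 7546 for Il1a (95% counting interval 2089 to 62310) and 3234 for Csf3 (895 to 26710), each from 2 counts without LPS. Both counts lay in replicate 1 for Il1a and in replicate 2 for Csf3. Without that library the fitted rise went from 7363-fold to 54090-fold for Il1a and from 2500-fold to 19550-fold for Csf3. That of Csf3 was 1433-fold without replicate 1 of SF3a1 siRNA without LPS.

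Whether the effect of LPS differed between the siRNA arms was tested with the interaction term of the same model, for the 6 genes that had more than 3 counts in both groups without LPS. The rise with LPS was smaller with SF3a1 siRNA for 4 of them: Il27 (log2 difference -3.70, edgeR adjusted p = 0.0725), Lif (-3.61, edgeR adjusted p = 0.0348), Il1b (-3.31, edgeR adjusted p = 0.0413) and Il1rn (-2.63, edgeR adjusted p = 0.0219). Of all genes tested, 1.94% were called lower in the interaction, 1.54% higher and 3.47% in either direction. The other two, Tnf and Il10, had log2 differences of -1.85 and -2.23 (edgeR adjusted p = 0.146 and 0.408), and both were called with the replicate block (edgeR adjusted p = 0.0475 and 0.0701), which called 11.7% of all genes. Of the 20 alternatives that gave a value, Tnf was called in 6 and Il10 in 2. With a library left out, the difference of Il10 ranged from -3.03 to -1.37 and was never called. Of the comparisons behind the 4 called differences, Lif was called only without LPS, where SF3a1 siRNA raised it. Il1rn and Il27 were called only with LPS, where SF3a1 siRNA lowered them, although the replicate block also called Il1rn higher without LPS. Il1b was called in both, and with replicates 2 and 3 alone its interaction was not called (log2 difference -2.21, edgeR adjusted p = 0.397), nor without replicate 1 of control siRNA or of SF3a1 siRNA without LPS (-3.31 and -2.26, edgeR adjusted p = 0.11 and 0.314). That of Lif was -3.02 without replicate 1 of SF3a1 siRNA without LPS (edgeR adjusted p = 0.0815). The Il27 call in the interaction was lost without any 1 of the 6 libraries without LPS and without replicate 2 or 3 of control siRNA with LPS, with log2 differences of -4.31 to -3.36 and adjusted p of 0.1 to 0.195, but not with replicates 2 and 3 alone (edgeR adjusted p = 0.00504).

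**Figure D3:**
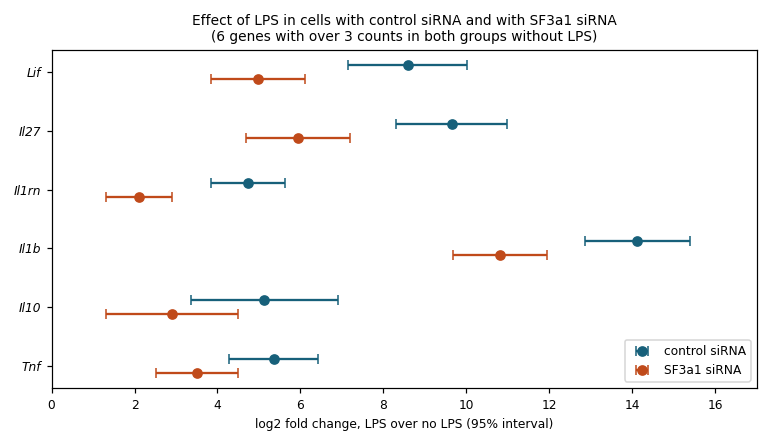
Log2 fold change with LPS against no LPS (x axis, 95% interval, 3 libraries per group) for the 6 cytokine genes with over 3 counts in both groups without LPS, in cells with control siRNA (blue) and SF3a1 siRNA (orange). Each orange point lies to the left of its blue point, and the intervals of Lif, Il27, Il1rn and Il1b do not overlap between the arms.

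Without LPS, SF3a1 siRNA raised 3 of the 10 genes, Lif, Il1b and Tnf, and lowered none by the test; 13.7% of all genes tested were called higher in this comparison, 20.1% lower and 33.8% in either direction. With the replicate block 5 genes were called, with Il10 and Il1rn in addition, against 47.1% of all genes. Lif was called in all 21 alternatives, Tnf in 17, Il1b in 12, Il1rn in 11 and Il10 in 4. Il6, Il1a and Csf2 had at most 3 counts in both groups and give no fold change. Csf3 had 5 counts over the control libraries and 2 over those with SF3a1 siRNA, a ratio of 0.609 (95% counting interval 0.0580 to 3.72). Without LPS, 4 of the 10 genes had groups without overlap (Tnf, Il1rn, Il27 and Lif), against 45.6% of all genes tested. With LPS there were 6 (Il6, Il1a, Il1b, Il1rn, Csf2 and Il27), against 39.1% of all genes. The 2 SF3a1 comparisons have no library in common, but each shares its libraries with an LPS comparison.

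Levels of different genes can be compared per length, here as CPM per kilobase of the longest coding transcript in GENCODE vM21. With control siRNA and LPS, Il1b stood first at 2274 ± 722 (SD, n = 3), followed by Tnf at 884 ± 412, Il1rn at 527 ± 296, Il1a at 480 ± 205, Il27 at 183 ± 89.1, Csf3 at 173 ± 125, Lif at 28.6 ± 3.84, Il6 at 8.97 ± 3.76, Il10 at 5.95 ± 4.58 and Csf2 at 2.70 ± 0.747. The library ranges of neighbours in this order overlapped for Tnf and Il1rn, Il1rn and Il1a, Il27 and Csf3, Il6 and Il10, and Il10 and Csf2, so these pairs did not differ beyond their spread. With SF3a1 siRNA and LPS, Il1b at 717 ± 260 and Tnf at 552 ± 295 had the highest means. The mean of Il27 was 21.99 ± 9.81 beside 30.5 ± 17.2 for Lif, and that of Il6 was 0.678 ± 0.214 beside 1.14 ± 0.504 for Csf2; the library ranges of both pairs, and of Il1b and Tnf, overlapped, although Il1b was above Tnf, Lif above Il27 and Csf2 above Il6 within each of the 3 libraries. In this group the library ranges of neighbours were apart only for Tnf and Il1rn, Il27 and Il10, and Il10 and Csf2. Without LPS only Tnf and Il1rn stood out, at 21.6 ± 3.42 and 19.7 ± 3.02 with control siRNA, while the other 8 were at 0.206 or less. With SF3a1 siRNA and no LPS these were 48.5 ± 10.8 and 34.6 ± 9.56, and Lif came next at 0.930 ± 0.552.

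The balance between pairs of cytokines was compared as the ratio of their counts within each library with LPS. The ratio of Il6 to Tnf was 0.0367, 0.00586 and 0.0152 with control siRNA and 0.00300, 0.000956 and 0.00241 with SF3a1 siRNA. It was 7.79-fold lower on average, and all 3 ratios with SF3a1 siRNA were below the control ratios (two-sided exact permutation test, p = 0.1, which is the lowest value possible with 3 libraries a group, and 0.3 after Benjamini-Hochberg adjustment over the 3 ratios). The ratio of Il10 to Tnf was 0.0219, 0.00263 and 0.00208 against 0.0196, 0.00230 and 0.00552, with wide overlap (exact permutation test, two-sided p = 0.9, adjusted 1). The ratio of the antagonist Il1rn to the agonist Il1b was 0.899, 0.309 and 0.224 with control siRNA. With SF3a1 siRNA it was 0.678, 0.199 and 0.412, while the antagonist and the agonist were both called lower, with a mean log2 difference of -0.05 between groups whose SDs were 1.05 and 0.891 (exact permutation test, two-sided p = 1, adjusted 1).

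Of 15 genes for receptors of these cytokines, 11 were tested, and with SF3a1 siRNA and LPS 4 were lower and 2 higher. With the replicate block, which called 50.9% of all genes in this comparison, 7 were lower (Tnfrsf1a, Il6ra and Csf2rb in addition) and 3 higher (Csf2rb2 in addition). The G-CSF receptor gene Csf3r fell by 2.04 on the log2 scale (edgeR adjusted p = 0.00248), and Il10ra, the ligand-binding chain for IL-10, fell by 1.46 (edgeR adjusted p = 0.000186). Il10ra had 109, 131 and 132 CPM with control siRNA and LPS and 41.2, 45.8 and 48.4 CPM with SF3a1 siRNA and LPS. It was also lower without LPS, with a log2 fold change of -1.80 (edgeR adjusted p = 8.2e-05). The TNF receptor gene Tnfrsf1b had a log2 fold change of -0.88 and the GM-CSF receptor gene Csf2ra one of -0.79 (edgeR adjusted p = 0.039 and 0.0561). Those higher were Il10rb, the other chain of the IL-10 receptor, and Il6st, which encodes gp130, with log2 fold changes of 0.93 and 0.72 (edgeR adjusted p = 0.00063 and 0.0583). With LPS and control siRNA 6 of the 11 were higher and 1 lower (7 and 2 with the replicate block, which called 43.9% of all genes there), led by Tnfrsf1b, which rose by 5.18 on the log2 scale (edgeR adjusted p = 3.55e-07), and Il10ra; Il6st was the gene lower. Il1r1, Il1r2, Il27ra and Lifr were too low to test. The median log2 fold change of the tested receptor genes with SF3a1 siRNA and LPS was -0.47.

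Of 30 other cytokine genes, 26 were tested, and with SF3a1 siRNA and LPS 11 were lower, 5 higher and 10 not called, with a median log2 fold change of -0.65. With the replicate block 13 were lower (Il7 and Tgfb1 in addition), 6 higher (Osm in addition) and 7 not called. Those with the largest falls were Il1f6 (IL-36α), Tnfsf10 (TRAIL), Il33 and Lta (lymphotoxin α), with log2 fold changes of -4.42, -3.64, -2.57 and -2.44 (edgeR adjusted p = 0.000715, 0.000256, 0.00147 and 0.00321). The largest rises were those of Il11, Il34, Inhba (activin A) and Clcf1, at 4.64, 2.97, 2.44 and 2.10 (edgeR adjusted p = 0.000306, 0.00345, 0.00614 and 0.0609). Il11 and Clcf1, like Il6 and Lif, encode cytokines that signal through gp130. Il11 had 24, 3 and 1 counts with control siRNA and LPS and 383, 153 and 130 with SF3a1 siRNA and LPS. With LPS and control siRNA, 23 of the 26 were higher and none lower by the test (24 and none with the replicate block, with Mif in addition). The largest fitted rises there were those of Il33, Il1f6, Il1f9 (IL-36γ) and Tnfsf15.

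Genes that process or release these cytokines were lower in 6 of 10 tested and higher in 2, with a median log2 fold change of -0.56. With the replicate block 3 were higher, with Adam10 in addition. The falls included Il18bp, the soluble inhibitor of IL-18, at -2.17, the inflammatory caspase genes Casp4 and Casp1 at -1.98 and -1.24, and the inflammasome sensor gene Nlrp3 at -0.68 (edgeR adjusted p = 0.00124, 4.79e-05, 0.00311 and 0.0926). Those higher were Rhbdf1 and Gsdmd, which encodes the pore-forming gasdermin D, at 1.32 and 0.44 (edgeR adjusted p = 0.00502 and 0.0374). Of 12 tested genes of signalling behind the receptors, 7 were lower and 1 higher, with a median of -0.91. Tyk2 and Cish had log2 fold changes of -1.73 and -1.71, and Stat3, the main transducer of IL-6 and IL-10, one of -1.63 (edgeR adjusted p = 0.000856, 6.6e-05 and 0.000226). Jak1 was the gene higher, at 0.39 (edgeR adjusted p = 0.0641). With LPS and control siRNA 8 of the 10 processing genes and 8 of the 12 signalling genes were higher, and 1 of each lower (9 processing genes were higher with the replicate block, with Rhbdf1 in addition); Casp4, Il18bp, Cish, Socs3 and Socs1 had the largest rises.

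**Figure D4:**
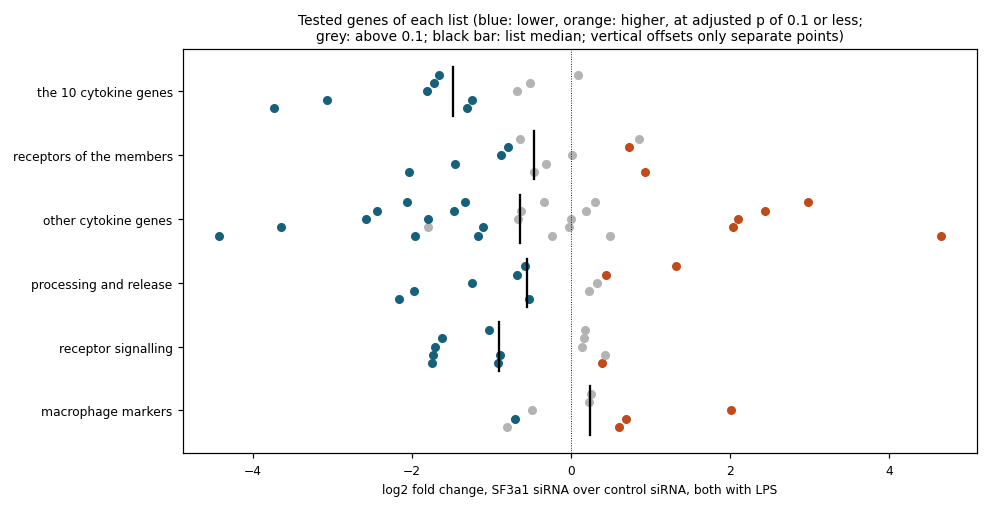
Log2 fold change with SF3a1 siRNA against control siRNA, both with LPS (x axis), of the tested genes of each list, 1 point per gene. Blue points were called lower, orange points higher and grey points not called; black bars are list medians. The 10 cytokine genes have 7 blue points and none in orange, while the 26 other cytokine genes have points called on both sides.

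The macrophage identity of the cultures was checked with marker genes. All 8 macrophage markers were detected in every group, and their summed level was 13540, 12230 and 11860 CPM with control siRNA and LPS and 13750, 16320 and 12380 CPM with SF3a1 siRNA and LPS. Lyz2, encoding lysozyme, was the most abundant at 6311 and 7487 CPM on average. Mertk had few counts, with 7, 3 and 2 in control siRNA without LPS and 9, 5 and 10 in control siRNA with LPS. It had 29, 20 and 54 counts with SF3a1 siRNA and LPS. With SF3a1 siRNA and LPS, 3 of the 8 were higher (Mertk, Csf1r and Spi1, at 2.01, 0.69 and 0.61) and 1 lower (Adgre1, at -0.71), with edgeR adjusted p of 0.00905, 0.00248, 0.0101 and 0.0765. With the replicate block 4 were higher (Cd68 in addition) and 3 lower (Itgam and Cd14 in addition). The 17 markers of T cells, B cells, fibroblasts, epithelium, neutrophils and dendritic cells summed to 1.35 to 1.68 CPM with control siRNA and LPS and to 1.79 to 3.27 CPM with SF3a1 siRNA and LPS. The T cell marker Cd8a was at 0 counts in all 12 libraries, and in each group 12 or 13 of the 17 had at most 3 counts over its 3 libraries. The most abundant was Zbtb46, at 0.772 CPM on average with control siRNA and LPS and 1.78 with SF3a1 siRNA and LPS, the only 1 of the 17 that was tested and called higher (log2 fold change 1.14, edgeR adjusted p = 0.0585). The part of Zbtb46 or of the higher Mertk, Csf1r and Spi1 in the results on the cytokine genes was not tested.

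Genes with the most similar pattern were found by Pearson's r of log2(CPM + 1) over the 12 libraries, among 9972 genes with at least 10 CPM in a group. These values describe the pattern; the 12 libraries share 4 conditions, so high values are common. Il1a and Il1b were each other's closest gene (r = 0.998), followed for both by the chemokine gene Ccl22 (0.996). For Il6 the closest were Trim30c, Ms4a4c and Gm12250 (0.995, 0.991 and 0.99), and for Il27 Fgr, Mtmr7 and Mx1 (0.994, 0.993 and 0.993). Csf2 had Mtmr7, Arhgef3 and Il27 (0.994, 0.993 and 0.993), Csf3 had Mmp14, Tnfrsf1b and Socs3 (0.997, 0.987 and 0.987), and Il1rn had H2-T23, Scimp and Uba7 (0.988, 0.986 and 0.984). For the genes not called with LPS, Tnf had Marcksl1, Peli1 and Ccl4 (0.988, 0.987 and 0.983), Lif had Gm49339, Nfkbia and 2010300C02Rik (0.988, 0.987 and 0.987), and Il10 had Igf2bp2, Slc30a7 and Mmp9 (0.977, 0.972 and 0.966).

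As SF3a1 acts in splicing, the use of exon bins within the cytokine genes was compared with SF3a1 siRNA and LPS against control siRNA and LPS. A bin is a stretch between annotated exon boundaries, and its usage is its percent of the bin counts of the gene. Of 72 bins of the 10 genes, 66 passed the filter, and 0 were called by edgeR's diffSpliceDGE, with 1 at an unadjusted p under 0.05; limma-voom also called 0. Across all genes 0.492% of 153624 bins were called, 0.381% higher and 0.111% lower. At the exon level control siRNA with LPS has 2 libraries, as its replicate 3 was not analysed here. In Lif, the last bin held 90.3% ± 2.57 of its counts in the controls (SD of 2 libraries) and 91.8% ± 1.25 after SF3a1 siRNA (SD of 3). The bins of Csf2, which has few counts, had the largest differences in mean share, and none was called. Its bin 1 had 26 and 14 counts with control siRNA and 12, 11 and 15 with SF3a1 siRNA, which is 36.1% ± 1.51 and 60.1% ± 9.62 of the gene, without overlap (unadjusted p = 0.447 in edgeR). Its bin 2 held 31.96% ± 13.4 and 14.9% ± 2.84 (unadjusted p = 0.178 in edgeR), also without overlap. In Il27, the bin with the largest share held 42.4% ± 1.35 and 41.9% ± 3.60. The bin with the unadjusted p of 0.0412 was bin 4 of Il1rn, at 20 and 4 counts with control siRNA and 41, 2 and 6 with SF3a1 siRNA, which is 0.0239% ± 0.00893 and 0.0947% ± 0.0780 of the gene. Of the 66 bins, 56 had an estimated log2 change of usage within 0.5 of 0. A shift in usage of the bins with few counts could have been missed, and the size that could be detected there was not measured.

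**Figure D5:**
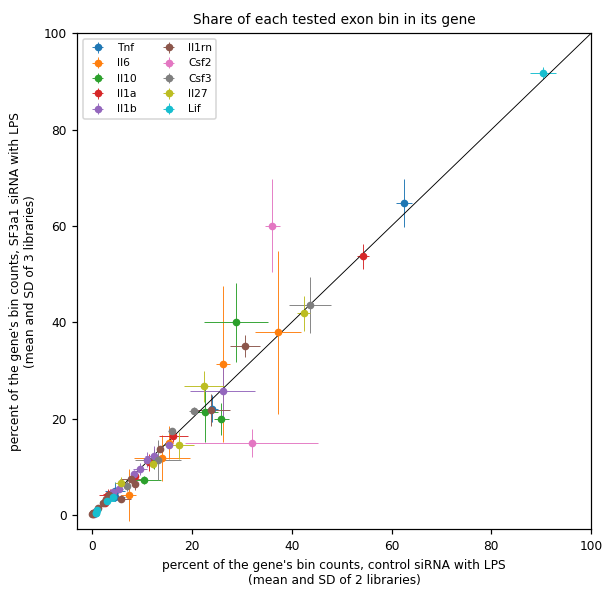
Share of each tested exon bin in the bin counts of its gene, in percent, with control siRNA and LPS (x axis, mean and SD of 2 libraries) against SF3a1 siRNA and LPS (y axis, mean and SD of 3 libraries), coloured by gene. The line marks equal shares. Of the 66 bins, 56 had an estimated log2 change of usage within 0.5 of 0, bins 1 and 2 of Csf2 (36.1 against 60.1% and 31.96 against 14.9%) lie off the line, and those with the widest bars belong to Il6, Csf2 and Il10.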

How the data were processed

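Polyadenylated RNA was sequenced on the Ion Proton. Per the submitters' processing notes and the study's methods, the authors aligned reads to mm10 with GSNAP, dropped those under 30 nt or mapping to several places, and deposited whole read counts per gene (HTSeq) and per exon bin, without normalization. Reads outside annotated genes (17.75 to 27.2% per library) stayed out of totals and tests. Sequences and gene models came from GENCODE vM21 and RefSeq. R 4.3.3 with edgeR 4.0.16 (TMM, filterByExpr, quasi-likelihood test over all 12 libraries), limma 3.58.1 and DESeq2 1.42.0 were used, with Python 3.11.15, numpy 2.4.6, scipy 1.17.1 and pandas 2.3.3. The steps were tested on simulated data. There the share of false calls exceeded the threshold by far for diffSpliceDGE, clearly for the edgeR interaction, and slightly for edgeR with SF3a1 siRNA without LPS and for LPS with control siRNA. The cytokine genes and the gene lists were chosen with earlier results of these data known. Named were the 10 genes in each comparison, up to 4 called genes per list and direction, genes pairing with a cytokine and the 3 most similar genes. One gene that this rule names is not reported here. Alternatives were other scalings, filters, tests, sample sets and the replicate block, and each library left out in turn.

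Pairs of replicates differed by more than sampling noise (chi-square per degree of freedom 8.85 to 118 over 12 pairs). Samples with the same replicate number deviated together. Once group means were subtracted, correlations were 0.14 to 0.68 over 18 such pairs (median 0.46) and -0.61 to 0.45 over 36 other pairs. The numbers were therefore taken to pair the samples. The main fits nevertheless have no block, and their p, intervals and shares of all genes ignore this pairing. Blocked values are given where they change a call of a cytokine gene or a count of a list. Il1a, Il1b, Csf2 and Il27 overlap a gene on the opposite strand, and their counts are uncertain to that extent.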

Additional observations from a re-analysis of the deposited data

Results flagged for a closer look

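The effect of LPS on 4 of the cytokine genes differed between the siRNA arms by the interaction term of the edgeR model. The log2 difference, SF3a1 siRNA against control siRNA, was -3.31 for Il1b, -2.63 for Il1rn, -3.70 for Il27 and -3.61 for Lif (edgeR adjusted p = 0.0413, 0.0219, 0.0725 and 0.0348). On simulated data this term made more false calls than its threshold allows. Il1rn stayed called in all 20 alternatives that gave a value, Lif in 19, Il1b in 16 and Il27 in 11.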

How the results depend on the processing

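All 10 cytokine genes were called higher with LPS in both siRNA arms under every alternative run. With SF3a1 siRNA and LPS, Il6, Il27, Il1rn, Il1a and Il1b were called lower in all 21 alternatives, Csf2 in 15 and Csf3 in 16 (Csf3 was lost with DESeq2, adjusted p = 0.213, both with only the groups compared, and Csf2 with no filter on low counts, adjusted p = 0.117), while Tnf was called in 4 and Il10 and Lif in none. Between 5 and 8 of the 10 were called there over the alternatives (6 or 7 with a library left out). Low counts limit Csf2, Il6 with SF3a1 siRNA and most levels without LPS, and 3 libraries per group limit all tests.

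Signs turned for Il10 with SF3a1 siRNA and LPS (0.35 without control siRNA with LPS replicate 1) and for Lif (-0.11 with limma-voom, -0.02 without control siRNA with LPS replicate 1 and -0.33 without SF3a1 siRNA with LPS replicate 2), none of them called. With a library left out, the log2 fold changes ranged from -0.95 to 0.35 for Il10 and from -0.33 to 0.47 for Lif. For SF3a1 siRNA without LPS, DESeq2, no filter on low counts and the replicate block each called 5 of the 10 genes, and leaving out a library gave 1 to 5; 1 was called without control siRNA without LPS replicate 2 and without SF3a1 siRNA without LPS replicate 1 or 3. In the interaction limma-voom called 1, and leaving out a library gave 2 to 5. Over all genes, the interaction called 520, against 966 with DESeq2, 930 with no filter, 1756 with the replicate block, 1010 with replicates 2 and 3 alone and 277 to 708 with a library left out. LPS with SF3a1 siRNA called 1598, against 3115 with the block and 1063 to 1995 with a library left out. Exon bins called were 756, against 1793 with the block and 103 to 894 with a library left out, and 0 bins of the 10 genes in each.

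The mean log2 difference of the ratio of Il10 to Tnf was 0.35, and -0.10, -0.27 and -0.47 without control replicates 2 or 3 or SF3a1 replicate 1 (range -0.47 to 1.43). That of Il1rn to Il1b was -0.05, and 0.54 and 0.42 without control replicate 1 or SF3a1 replicate 2 (range -0.47 to 0.54). That of Il6 to Tnf ranged from -3.63 to -2.31. With signs permuted within pairs, the p of the ratios was 0.25, 1 and 1 (exact permutation test, two-sided). Apart from Il10 and Il1rn without LPS and Tnf and Il10 in the interaction, the replicate block changed no call of the 10 genes. The causes of these shifts were not tested.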
